A study of Mus musculus with 4 samples.

Results

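Necroptosis is a lytic form of programmed death that can run when apoptosis is blocked. The kinase RIPK3 is engaged through RHIM domains by RIPK1 or by ZBP1, a sensor of Z-form nucleic acid, and phosphorylates MLKL, which then permeabilises the plasma membrane. RIPK1 is recruited to the TNF receptor with the adaptor TRADD, the scaffold TRAF2 and the ubiquitin ligase cIAP1, and the deubiquitinase CYLD removes the ubiquitin chains that hold RIPK1 in that complex. FADD and caspase-8, with the caspase-like protein cFLIP, form the complex that cleaves RIPK1 and RIPK3 and so restrains necroptosis. BAX and BAK, which the cells studied here lack, permeabilise the outer mitochondrial membrane in apoptosis and are not part of this route.

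The genes described are 9 of a list of 10, Ripk3, Mlkl, Zbp1, Tradd, Traf2, Birc2, Cyld, Fadd and Cflar, out of 19938 named genes on the array, and were listed by gene name with earlier results of these data known. Ripk1 is not analysed here. The members rest on 12 probe sets, of which Cflar has 3, Birc2 has 2 and the remaining 7 genes have 1 each. For a gene with several, the probe set with the highest mean over the arrays is reported and the others are given beside it.

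All samples were C57BL/6 mouse embryonic fibroblasts, prepared at embryonic day 13.5, that lack both BAX and BAK and are SV40-transformed. The large T antigen of that virus is known to inactivate p53. The groups were p63 cells treated with etoposide for 6 h, mock-treated p63 cells, GFP cells treated with etoposide for 6 h, and mock-treated GFP cells, where p63 and GFP name the gene carried by the retrovirus. Etoposide traps topoisomerase II on cleaved DNA. Its dose is 10 µg/mL in the treatment protocol, whereas the sample characteristics state the same figure per microlitre. Each group is 1 array, so no spread between replicates exists, no test was made, and differences are given by size. The labels do not say whether a line is a clone or a pool, nor which species and isoform of p63 was used.

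Values are log2 signals as deposited after RMA. A gene is called from a difference of 1 in either direction, which corresponds to 2-fold. A gene was kept where its highest signal reached 5.87, the median of all values of the named probe sets. That left 10698 genes, all 9 members among them. Only Zbp1 among the members read below 5.87 on any array. The median of the genes kept was 7.68 in etoposide-treated p63 cells, 7.48 in mock-treated p63 cells, 7.60 in etoposide-treated GFP cells and 7.69 in mock-treated GFP cells. Accordingly the median difference over all genes was 0.10 for etoposide in p63 cells and -0.08 in GFP cells, and 0.02 for p63 in etoposide-treated cells and -0.14 in mock-treated cells. For 78 genes the mock-treated p63 array differed by at least 1 from each other array while those 3 agreed within 0.5. Such genes numbered 2 for etoposide-treated p63, 1 for etoposide-treated GFP and 22 for mock-treated GFP cells, and 0 members were among them on any array. Trp63 read 9.29 and 8.75 in p63 cells and 5.59 and 4.87 in GFP cells, with etoposide before mock. Bak1 read 5.41 to 5.71 over the arrays, and whether its probes lie in the deleted part is not known here, so this does not check the knockout. Bax is not analysed here. Of 12 fibroblast markers 7 or 8 were at or above 5.87 on each array, while Pdgfra, Thy1, Dcn and Lum were below it on all 4. Of 9 haematopoietic markers found, Cd68 alone reached 5.87 on any array, and of 4 endothelial markers 0 did. Of 6 epithelial markers 3 reached it on each p63 array and 1 on each GFP array.

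Mlkl, the executioner, was the 1 member called of 9, and was higher after etoposide in p63 cells, where 6.28% of all genes were higher. Ripk3, the kinase that activates it, and Cyld stood higher after etoposide in each line by less than 1. Zbp1 read below the filter on 3 of 4 arrays and stood lower in p63 cells than in GFP cells under each treatment.

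**Figure D1:**
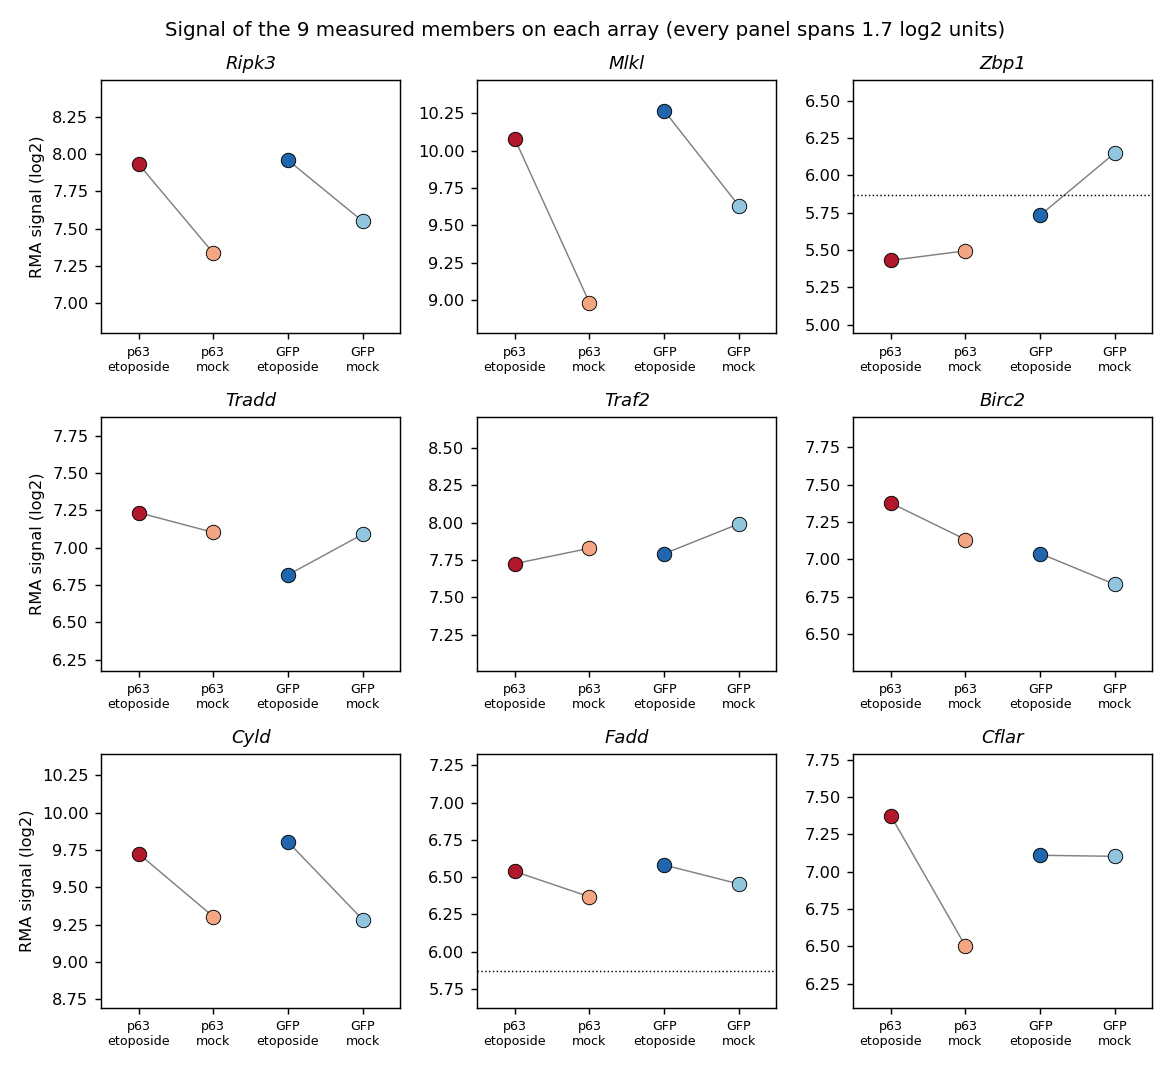
RMA signals (log2, vertical axis) of the 9 members on the 4 arrays, with 1 point per array, grey lines joining etoposide and mock within a line, and a dotted line at the filter of 5.87 where it falls in the panel. Mlkl, Ripk3, Cyld, Fadd and, barely, Cflar have both etoposide points above both mock points, and Zbp1 has 3 points below the filter.

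Mlkl encodes the pseudokinase that executes necroptosis. Its signal was 10.08 in etoposide-treated and 8.98 in mock-treated p63 cells, against 10.27 in etoposide-treated and 9.63 in mock-treated GFP cells. Both treated arrays were therefore above both mock arrays, and the mock-treated p63 array was lowest. The etoposide difference was 1.10 in p63 cells, a 2.14-fold change, and 0.64 in GFP cells, a 1.56-fold change. Among all genes kept, 5.73% differed by at least as much in p63 cells and 15.7% did so in GFP cells. With arrays centred on their medians the differences were 0.90 in p63 cells and 0.74 in GFP cells, so the call was lost in p63 cells, and after cyclic loess they were 1.01 and 0.76. The call in p63 cells uses the mock-treated p63 array, whereas the difference in GFP cells does not. Between lines Mlkl stood at -0.19 (p63 minus GFP) in etoposide-treated cells and -0.65 in mock-treated cells. In bulk RNA, fewer cells of a type and less RNA per cell cannot be told apart.

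Ripk3 encodes the kinase that phosphorylates MLKL. It read 7.93 in etoposide-treated and 7.34 in mock-treated p63 cells, against 7.96 in etoposide-treated and 7.55 in mock-treated GFP cells. The arrays thus stood in the same order as for Mlkl, with GFP cells on etoposide highest and mock-treated p63 cells lowest. Its etoposide difference was 0.60 in p63 cells and 0.41 in GFP cells, or 1.51-fold and 1.33-fold, and 21.4% and 33.6% of genes differed by at least as much. These values were 0.40 and 0.51 with arrays centred, so which line shows the larger difference depends on the scaling. Between lines Ripk3 differed by -0.03 with etoposide and by -0.21 under mock treatment, and the value under mock treatment was 0.00 with arrays centred.

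Zbp1 encodes the Z-nucleic acid sensor that engages RIPK3 without RIPK1 and is induced by interferon. It read 5.43 in etoposide-treated and 5.49 in mock-treated p63 cells, against 5.73 in etoposide-treated and 6.15 in mock-treated GFP cells. Only the array of mock-treated GFP cells reached the filter, and both p63 arrays lay below both GFP arrays. The p63 minus GFP difference was -0.30 with etoposide and -0.66 under mock treatment, and the etoposide minus mock difference was -0.06 in p63 cells and -0.42 in GFP cells. With dim readings set to the filter, 2 of these 4 differences became 0.00, and those in mock-treated cells and in GFP cells each became -0.28. No difference of Zbp1 thus has both of its readings at or above the filter.

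Haematopoietic cells also express these 3 genes, so their markers were read on the same arrays. Cd68 read 6.87 in etoposide-treated and 5.20 in mock-treated p63 cells, against 6.78 in etoposide-treated and 6.05 in mock-treated GFP cells, with both treated arrays above both mock arrays as for Mlkl and Ripk3. The other 8 markers found, the pan-leukocyte gene Ptprc among them at 3.65 to 4.07, were below the filter on all 4 arrays. The summed log2 signal of the 9 markers was 41.8 and 41.2 in etoposide- and mock-treated p63 cells and 42.5 and 40.4 in etoposide- and mock-treated GFP cells. This sum is made up mainly of readings below the filter, so it cannot show whether haematopoietic RNA was present or changed.

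Cyld encodes the deubiquitinase that removes ubiquitin chains from RIPK1, and its loss is known to favour NF-kB signalling over death. It read 9.73 in etoposide-treated and 9.30 in mock-treated p63 cells, against 9.80 in etoposide-treated and 9.28 in mock-treated GFP cells. The 2 mock arrays lay close together, and both treated arrays lay above them. The etoposide difference was 0.42 in p63 cells and 0.52 in GFP cells, a size that 35.4% and 23.2% of genes reached. Between lines Cyld stood at -0.08 with etoposide and at 0.02 under mock treatment. Without replicates, these differences between lines cannot be told from 0.

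The promoters of Mlkl, Ripk3 and Cyld are shown because these members, chosen for display after their values were seen, stood higher after etoposide by at least 0.41 in each line. The windows are from RefSeq on GRCm38.p6, run from 250 bases before to 50 bases after an annotated start on the gene's own strand, and lie at chr8:111338156-111338455 on the minus strand for Mlkl, chr14:55788808-55789107 on the minus strand for Ripk3 and chr8:88696778-88697077 on the plus strand for Cyld. Capitals mark matches, on either strand, to a core of the interferon-stimulated response element (GAAANNGAA), of the gamma-activated site (TTCNNNGAA) or of the NF-kB site (GGANTTTCC).
Mlkl: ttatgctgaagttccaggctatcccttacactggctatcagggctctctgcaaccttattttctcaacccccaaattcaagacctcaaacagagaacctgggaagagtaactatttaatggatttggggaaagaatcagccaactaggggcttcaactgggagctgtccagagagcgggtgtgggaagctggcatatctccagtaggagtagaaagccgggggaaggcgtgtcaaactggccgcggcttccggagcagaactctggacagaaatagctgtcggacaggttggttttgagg
Ripk3: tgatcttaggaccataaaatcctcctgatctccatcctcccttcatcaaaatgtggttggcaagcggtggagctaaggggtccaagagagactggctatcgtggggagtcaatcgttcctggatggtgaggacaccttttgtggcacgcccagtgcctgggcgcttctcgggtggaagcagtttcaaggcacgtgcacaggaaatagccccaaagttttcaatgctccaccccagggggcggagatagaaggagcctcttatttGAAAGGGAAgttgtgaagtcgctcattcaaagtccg
Cyld: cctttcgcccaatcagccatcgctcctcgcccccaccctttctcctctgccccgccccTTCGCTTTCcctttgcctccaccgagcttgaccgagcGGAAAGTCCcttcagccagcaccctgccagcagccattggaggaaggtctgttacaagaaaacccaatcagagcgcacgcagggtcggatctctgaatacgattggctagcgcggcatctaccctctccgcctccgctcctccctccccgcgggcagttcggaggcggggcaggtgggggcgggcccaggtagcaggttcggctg

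The Ripk3 window holds the interferon-response core from position 15 downstream of the start. The Cyld window holds that core at position -192 and the NF-kB core at position -155, both on the opposite strand. The Mlkl window holds no match to the 3 cores. RefSeq places the gene at chr8:111311255-111338479, so this window lies wholly inside the gene. Sequence upstream of the gene's outer end was not searched, and the lack of a match covers this window only. Of 32851 promoter windows in the table, 8.56% hold the interferon-response core, 8.30% the gamma-activated core and 1.25% the NF-kB core, on either strand, with matches counted for each of the 3 motifs whether or not they overlap. Windows were matched for 7 of the 9 members, and Cflar was the third with the interferon-response core, at position 8. A match describes letters and does not show that a factor binds there.

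Cflar encodes cFLIP, the partner of caspase-8 that tunes caspase-8 activity and with it holds back both apoptosis and necroptosis. The probe set with the highest mean read 7.38 in etoposide-treated and 6.50 in mock-treated p63 cells, against 7.11 in etoposide-treated and 7.10 in mock-treated GFP cells. The mock-treated p63 array was low and the GFP arrays were level. The etoposide difference was 0.87 in p63 cells and 0.01 in GFP cells. Between lines p63 minus GFP was 0.27 with etoposide, a comparison without the mock-treated p63 array, and -0.60 under mock treatment. The etoposide differences lay 0.87 apart, a size that 6.90% of genes reached, or 0.57 once arrays were centred and 0.74 by cyclic loess.

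The other probe sets of Cflar gave smaller contrasts between the lines. Probe set 10346551 differed by 0.41 after etoposide in p63 cells and by 0.25 in GFP cells, and 10497931 differed by 0.73 and 0.17. The lines were thus 0.17 and 0.56 apart. In mock-treated cells p63 minus GFP was 0.20 for 10346551 and -0.14 for 10497931, so its sign differed among the probe sets. The annotation lists 4 accessions for the probe set with the highest mean, and both others list those 4 as well, so the probe sets are not independent measures of the gene. All 3 stood higher after etoposide in p63 cells.

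**Figure D2:**
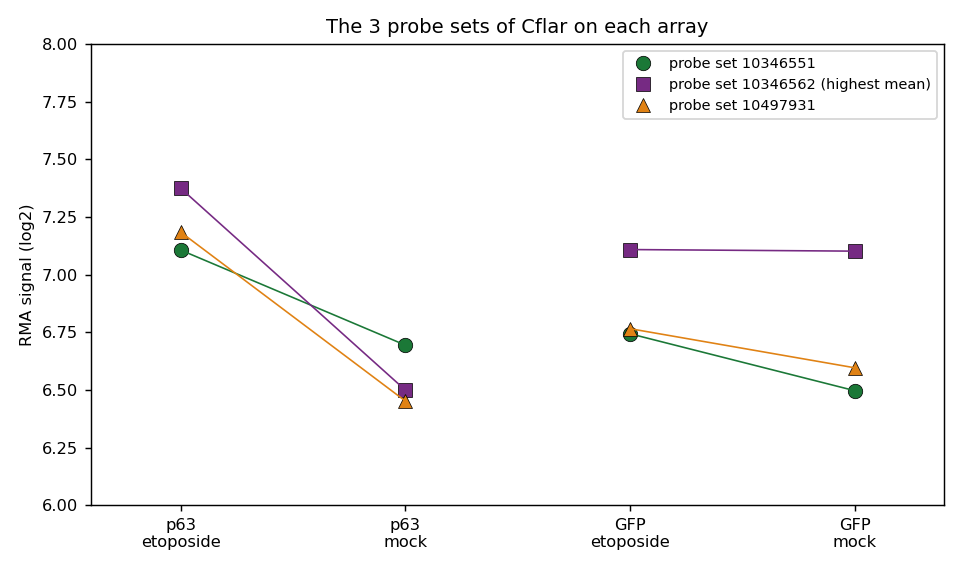
RMA signals (log2, vertical axis) of the 3 probe sets of Cflar on the 4 arrays, with lines joining etoposide and mock within a line. All 3 are higher with etoposide in p63 cells, while in GFP cells the differences run between 0.01 and 0.25.

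Fadd encodes the adaptor that brings caspase-8 to death receptors. It read 6.54 in etoposide-treated and 6.37 in mock-treated p63 cells, against 6.58 in etoposide-treated and 6.45 in mock-treated GFP cells. Its range over the 4 arrays, 0.21, was the smallest of the 9 members. The etoposide differences were 0.17 in p63 cells and 0.13 in GFP cells, and the first was -0.03 with arrays centred.

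Tradd encodes the adaptor that docks on the TNF receptor and recruits RIPK1 and TRAF2. Its signal was 7.23 in etoposide-treated and 7.10 in mock-treated p63 cells, against 6.82 in etoposide-treated and 7.09 in mock-treated GFP cells. The etoposide-treated GFP array was the low one, and the remaining arrays lay together. The etoposide difference was 0.13 in p63 cells and -0.27 in GFP cells, and p63 minus GFP was 0.42 with etoposide and 0.01 under mock treatment. The value of 0.42 was reached in size by 14.6% of genes. With arrays centred the etoposide difference in p63 cells was -0.06, so its sign depends on scaling.

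Traf2 encodes the scaffold that carries the cIAP ligases. It read 7.73 in etoposide-treated and 7.83 in mock-treated p63 cells, against 7.79 in etoposide-treated and 7.99 in mock-treated GFP cells. Both treated arrays lay below both mock arrays, by little. The etoposide differences were -0.10 in p63 cells and -0.20 in GFP cells, which 80.6% and 62.5% of genes reached in size.

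Birc2 encodes cIAP1, the ligase that adds ubiquitin to RIPK1. Its signal was 7.38 in etoposide-treated and 7.13 in mock-treated p63 cells, against 7.04 in etoposide-treated and 6.83 in mock-treated GFP cells. Both p63 arrays lay above both GFP arrays, with p63 minus GFP at 0.34 with etoposide and 0.30 under mock treatment. The etoposide differences were 0.24 in p63 cells and 0.21 in GFP cells. The other probe set of Birc2, which rests on 1 accession and shares none with the first, gave 0.36 and -0.16 for p63 minus GFP with etoposide and under mock treatment, so under mock treatment the probe sets differ in sign. Birc3, the gene of the related ligase cIAP2, named after its values were seen, read 6.38 in etoposide-treated and 5.87 in mock-treated p63 cells, against 6.33 in etoposide-treated and 6.28 in mock-treated GFP cells.

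**Figure D3:**
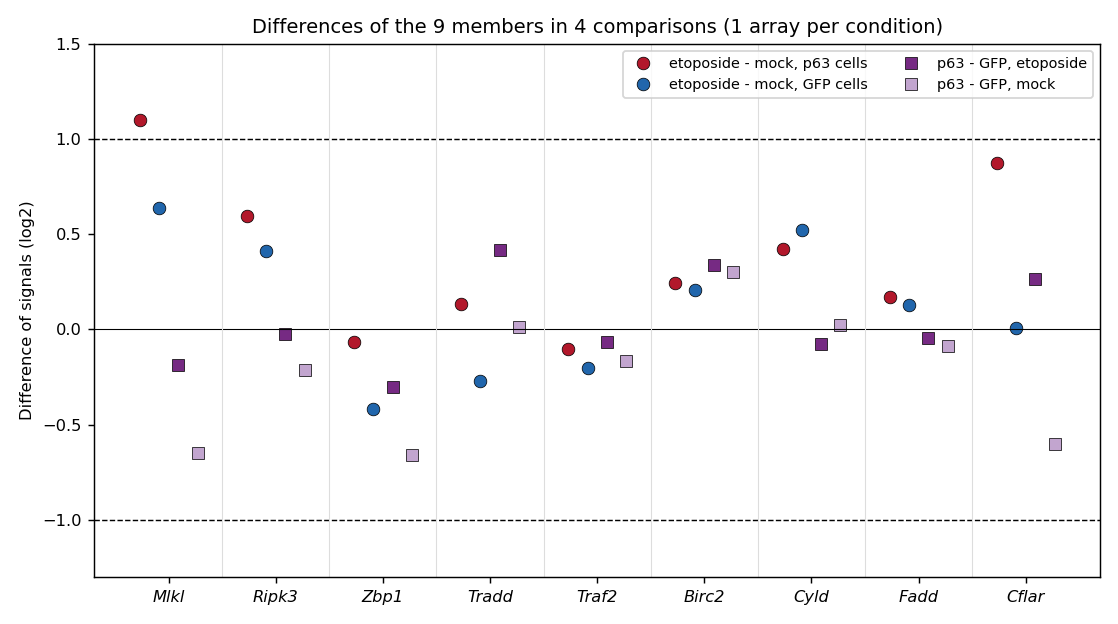
Differences of log2 signals (vertical axis) of the 9 members for etoposide minus mock in p63 and in GFP cells (circles) and p63 minus GFP with etoposide and under mock treatment (squares), with dashed lines at the call threshold of 1. The Mlkl point for etoposide in p63 cells, at 1.10, is the 1 point beyond a dashed line.

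Counted over the list, 1 of 9 members was called after etoposide in p63 cells, and it was higher, where 7.61% of all genes were called in either direction. In GFP cells 0 of 9 were called, against 5.65% of all genes. For p63 against GFP 0 of 9 were called with etoposide, against 1.90%, and 0 of 9 under mock treatment, against 6.18%. The difference between the etoposide differences reached 1 for 0 of 9 members, against 3.94% of genes. A count of 0 or 1 in 9 members is near these backgrounds and is no result about the list.

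At 1.5-fold, 3 of 9 members passed after etoposide in p63 cells, namely Mlkl, Cflar and Ripk3, against 22.0% of genes, and Mlkl alone passed in GFP cells, against 18.8%. With p63 under mock treatment Zbp1, Mlkl and Cflar were lower by 1.5-fold. Of all genes 22.8% passed in either direction, and 1720 of 10698 were lower by that much. Of these 3 members, Zbp1 stood at -0.28 with dim readings raised, and Cflar at -0.10 as the median of its probe sets. With p63 and etoposide 0 of 9 passed, against 6.78%. The median difference over the members was 0.24 for etoposide in p63 cells and 0.13 in GFP cells, and -0.04 for p63 in etoposide-treated cells and -0.16 in mock-treated cells. The p63 medians lay close to those of all genes, 0.02 and -0.14, and the etoposide medians lay above theirs, 0.10 and -0.08.

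By order of the arrays, 5 of 9 members, Ripk3, Mlkl, Cyld, Fadd and Cflar, had both etoposide arrays above both mock arrays, as 23.8% of genes did. Traf2 had both below, as 22.1% of genes did. These orders are of the values as deposited. With arrays centred the etoposide difference of Fadd in p63 cells was -0.03, so Fadd no longer had both etoposide arrays above. Tradd and Birc2 had both p63 arrays above both GFP arrays, an order found for 12.9% of genes, and Zbp1 had both below, as for 21.2%. Without replicates no neighbours in these orders can be said to differ beyond their spread, and the deciding arrays almost coincide for Cflar, at 7.11 in etoposide-treated and 7.10 in mock-treated GFP cells, and for Tradd, at 7.10 in p63 and 7.09 in GFP cells under mock treatment.

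The receptors and ligands that start the pathway were read next. Of 11 found, 6 were kept, and the 5 below the filter on all arrays were the ligand genes Tnf, Lta, Fasl and Tnfsf10 and the receptor gene Tnfrsf25. Fas, a death receptor, was the 1 of 6 higher by at least 1 after etoposide in both lines, where 2.57% of genes were. It read 9.58 in etoposide-treated and 7.19 in mock-treated p63 cells, against 9.23 in etoposide-treated and 6.64 in mock-treated GFP cells. Tnfrsf10b, the mouse TRAIL receptor, differed by 1.52 in p63 cells and 0.85 in GFP cells. Tnfrsf1a, the main TNF receptor, named here after its values were seen, differed by 0.63 and 0.48. Tnfrsf1b, the second TNF receptor, which signals through TRAF2, stood lower in p63 cells, at -0.89 with etoposide and, past the call, -1.53 under mock treatment. The list had medians of 0.83 for etoposide in p63 cells and 0.44 in GFP cells.

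Among the ligases, deubiquitinases and kinases of the TNF complex, 22 of 23 found were kept and 0 were called after etoposide in GFP cells, against 5.65% of all genes. In p63 cells 3 of 22 were higher after etoposide, against 6.28% of all genes. They were Ikbke, the gene of an IKK-related kinase (1.39 in p63 cells and 0.97 in GFP cells), Tnfaip3, and Tab3, a ubiquitin-binding subunit of the TAK1 complex (1.01 and 0.20), the last named after its values were seen. Ikbke was below the filter in mock-treated GFP cells, and its difference in GFP cells was 0.85 with this reading raised. Tnfaip3 encodes A20, an NF-kB-induced ubiquitin editor that restrains RIPK3 and RIPK1. It read 8.64 in etoposide-treated and 7.37 in mock-treated p63 cells, against 7.70 in etoposide-treated and 8.07 in mock-treated GFP cells. The etoposide difference was thus 1.27 in p63 cells and -0.37 in GFP cells, and 3.94% of genes had etoposide differences at least 1 apart. Of the linear ubiquitin ligase, Rbck1 differed after etoposide by 0.83 and 0.40, and Rnf31 differed between lines by -0.36 with etoposide and -0.77 under mock treatment.

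Caspase-8 and other triggers of the pathway, 9 genes, were not called after etoposide in either line. Of all genes 7.61% were called in p63 cells and 5.65% in GFP cells, so a count of 0 in 9 is near the background. Casp8, the protease that restrains necroptosis, named after its values were seen, read 8.85 in etoposide-treated and 8.90 in mock-treated p63 cells, against 8.61 in etoposide-treated and 8.70 in mock-treated GFP cells. In p63 cells under mock treatment 3 of 9 were lower, against 3.76% of genes. They were Adar, the editor that removes ligands of ZBP1, at -1.65, Eif2ak2, the double-stranded RNA kinase PKR, at -1.38, and the RNA receptor gene Tlr3 at -1.07. With etoposide these stood at -0.52, -0.23 and -0.13. Tlr3 was below the filter on 2 arrays, and its difference under mock treatment was -0.89 with these readings raised. All 3 are interferon-induced. For the partners of MLKL and RIPK3, chaperones and membrane-repair genes among them, 15 were kept and 0 were called in both lines or under both treatments. Of all genes 2.57% were higher and 0.608% lower after etoposide in both lines. With p63 under both treatments 0.925% were higher and 0.486% lower, so these counts of 0 are near the background. Ripk4, a relative of Ripk3, was dim on 3 arrays. By size the others were Vps4a and Pdcd6ip, of the ESCRT membrane-repair machinery, with etoposide differences of -0.41 and 0.64 in p63 cells and -0.52 and 0.19 in GFP cells. Between lines they were Tspo, at 0.44 with etoposide and 0.27 under mock treatment, and Chmp2a, an ESCRT subunit gene, at 0.33 and 0.34.

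NF-kB targets that TNF induces had higher median etoposide differences than the members. Their median was 1.04 in p63 cells and 0.43 in GFP cells over 14 genes kept. In p63 cells 8 of 14 were higher, against 6.28% of genes, or 7 of 14 with a median of 0.79 once dim readings were raised. In GFP cells 3 of 14 were higher, against 3.52%. The values in p63 cells use the mock-treated p63 array, on which 6 of 14 were lower by at least 1 than in mock-treated GFP cells, against 3.76% of genes. The p63 minus GFP median was -0.17 with etoposide and -0.73 under mock treatment. With dim readings raised the median under mock treatment was -0.46, and 5 of 14 were lower by at least 1. The 3 of 14 higher by at least 1 in both lines, where 2.57% of genes were, were Nfkbia, the gene of the inhibitor IkB-alpha, Icam1 and Ccl2. Ccl5, a chemokine gene, was lower with p63 under both treatments, where 0.486% of genes were, at -2.13 with etoposide and -2.77 under mock treatment.

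**Figure D4:**
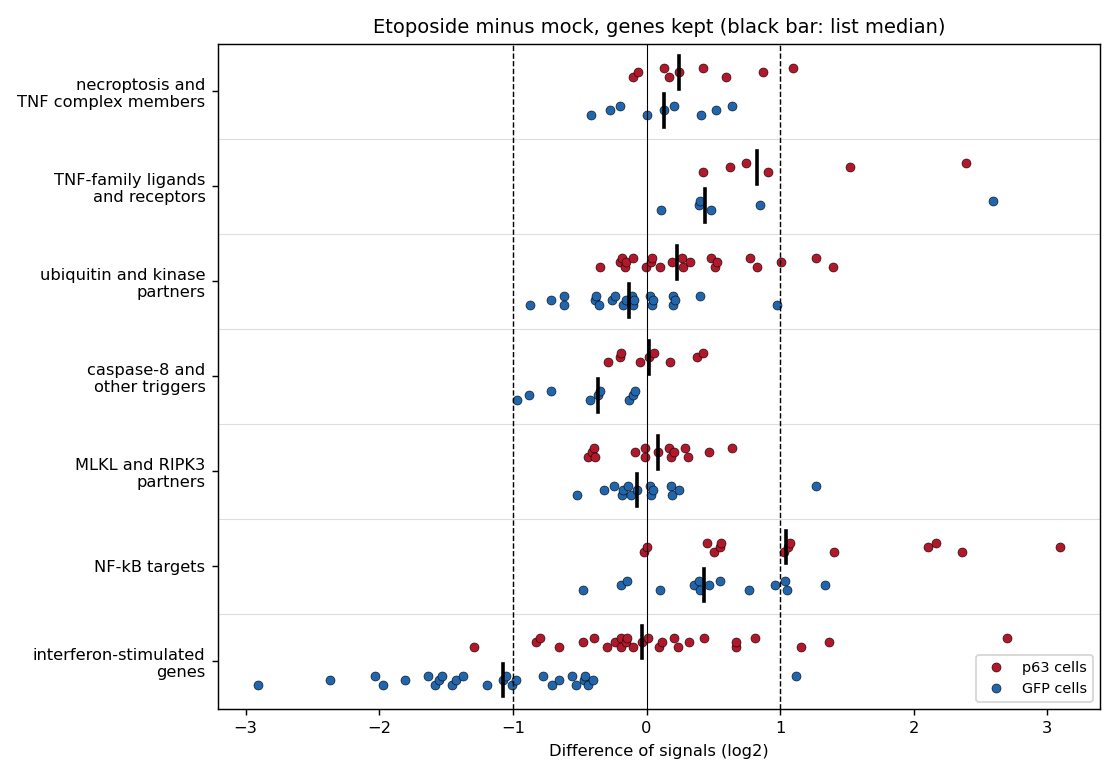
Etoposide minus mock differences (log2, horizontal axis) of the genes kept in each list, with p63 cells above GFP cells, black bars at list medians and dashed lines at 1 and -1. The 9 members lie between -0.42 and 1.10, while NF-kB targets reach 3.10 in p63 cells and interferon-stimulated genes extend to -2.91 in GFP cells. That point is Ifit3, whose etoposide reading is below the filter, and is -1.67 with readings raised.

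Since Zbp1 and Mlkl are known to be induced by interferon, 27 interferon-stimulated genes were set beside them. With p63, 16 of 27 were lower by at least 1 under both treatments, where 0.486% of genes were, and 0 were higher, where 0.925% were. The 16 were the antiviral effectors Ifit1, Ifit3, Mx2, Oasl2, Rsad2, Bst2 and Gbp3, the RNA sensors Ifih1 and Ddx58, the transcription factors Irf7 and Irf9, and Usp18, Trim25, Rtp4, Psmb8 and Xaf1. The list's median was -1.21 with etoposide and -2.33 under mock treatment, or -0.84 and -2.19 with readings below the filter raised, when 10 of 27 were lower under both treatments. Mlkl stood at -0.19 and -0.65 in the same comparisons, smaller in size than these medians. Zbp1 stood at -0.30 and -0.66, or 0.00 and -0.28 with readings raised. Zbp1 reached the filter only in mock-treated GFP cells, at 6.15, so it had little room for a fall as large as these medians. Its smaller values therefore do not show that Zbp1 was less affected than the list. After etoposide in GFP cells the list had a median of -1.07, and 16 of 27 were lower, against 2.12% of genes. Mlkl, in contrast, stood at 0.64. Zbp1 stood at -0.42, or -0.28 with readings raised, and the same limit holds for it here. In p63 cells the median was -0.04, whereas Mlkl stood at 1.10. One gene of the list, Ifit2, was lower after etoposide in both lines, where 0.608% of genes were. Tap1, a peptide transporter gene, was higher in both, where 2.57% were.

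**Figure D5:**
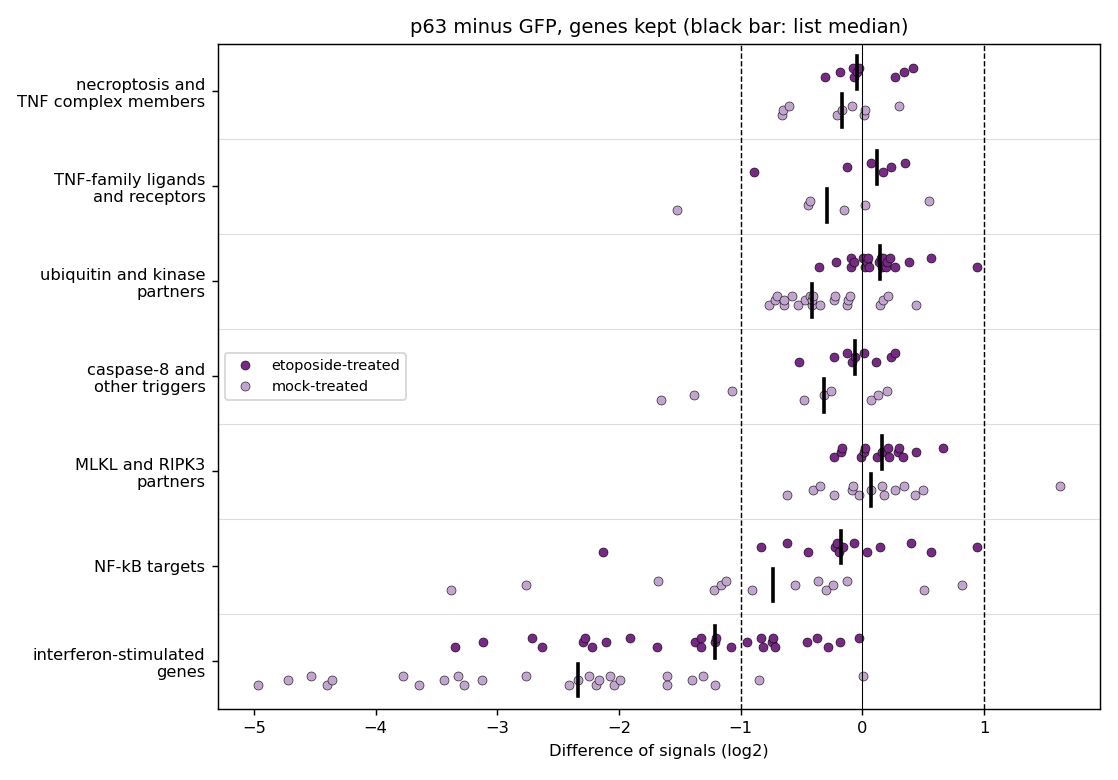
p63 minus GFP differences (log2, horizontal axis) of the genes kept in each list, with etoposide-treated cells above mock-treated cells, black bars at list medians and dashed lines at 1 and -1. The 9 members lie between -0.66 and 0.42, and the interferon-stimulated genes extend to -3.34 (Usp18) with etoposide and -4.97 (Rtp4) under mock treatment. Both points rest on p63 readings below the filter and are -2.75 and -4.14 with these raised. With readings raised the list extends to -3.12 (Bst2) with etoposide and -4.24 (Ifit1) under mock treatment.

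Genes with profiles most like those of the 2 members with the widest range were sought among 10207 genes, by the root mean square distance over the 4 arrays after subtracting each gene's mean. For Mlkl, with a range of 1.29, they were Slc35e3, Cpped1, Alad, Il4ra, Nt5dc3 and Tmem184b, at distances of 0.014 to 0.039. Slc35e3 differed after etoposide by 1.09 in p63 cells and 0.61 in GFP cells, and Il4ra, the interleukin-4 receptor alpha chain gene, by 1.13 and 0.71. For Cflar, with a range of 0.87, they were Ndufc1, Cab39, Ext2, Tmsb10, Cep76 and Gpr63, at 0.022 to 0.036. Likeness over 4 arrays is a description, since arrays are few and genes many.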

How the data were processed

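The labels give 4 samples, each the only one of its group, hybridised to Affymetrix Mouse Gene ST arrays after whole-transcriptome amplification of total RNA. The deposited values are log2 signals that the authors made, per the submitters' processing notes, with Expression Console and RMA, of which no version is stated. The log base was inferred from their range, 1.27 to 14.4. RMA equalises the intensity distributions of arrays, so a shift shared by most genes is largely removed. Having 1 array a group limits the precision, and no counts exist.

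Of 35512 probe sets, 21789 had exactly 1 symbol in the platform annotation, 1621 several and 12102 none. Entrez identifiers matched 21698 of these to the RefSeq gene table of GRCm38.p6, which updated their symbols. No source names the build behind the array annotation, so coordinates are given only from RefSeq, for promoter windows and the span of Mlkl. Differences were taken between arrays with Python 3.11.15 and pandas 2.3.3, and cyclic loess was run with limma 3.58.1. The calculation was tested on simulated data.

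The text names all members and, from each further list, the genes called in both comparisons of a pair or otherwise up to 3 with the largest mean size. It also names the 6 closest profiles of 2 members. The members and lists were chosen with earlier results of these data known. Protein sequences were not used here.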

Additional observations from a re-analysis of the deposited data

Results flagged for a closer look

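Among the members and the 93 other genes kept in the lists, 0 members and 15 list genes had etoposide differences of opposite sign in the lines, or p63 differences of opposite sign under the treatments, with the etoposide differences at least 1 apart. Of all genes kept, 3.94% had etoposide differences at least 1 apart whatever their signs. The share of all genes that meet the whole rule was not computed. The difference was not tested, since each group has 1 array, and the lists were added to this search after it had been seen that no member met it. Each value is the p63 line's etoposide difference less the GFP line's, so all 15 use all 4 arrays, the mock-treated p63 and mock-treated GFP arrays among them. Among regulators and targets of NF-kB, the values were 1.65 for Tnfaip3, 1.31 for Nfkbia, 1.20 for Ptgs2 and 1.03 for Vcam1. They were 1.14 for Adar and 1.15 for Eif2ak2, whose products bind double-stranded RNA. Among interferon-stimulated genes they were 2.61 for Ifit1, 2.38 for Parp14, 2.25 for Rtp4, 2.18 for Oasl2, 1.90 for Gbp3, 1.87 for Xaf1, 1.62 for Dhx58, 1.37 for Mx2 and 1.13 for Ifi35. Nfkbia and Ptgs2 stood higher after etoposide in both lines and met the rule through p63 differences of 0.40 and 0.04 with etoposide and -0.91 and -1.16 under mock treatment.

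Both p63 arrays read below the filter of 5.87 for Parp14, Rtp4, Oasl2, Xaf1, Dhx58 and Mx2, and the mock-treated p63 array did so for Ifit1 and Gbp3. With such readings raised to 5.87, 12 of the 15 stayed at least 1 apart, while Gbp3 stood at 0.96, Mx2 at 0.55 and Dhx58 at 0.55. The gap is only part of the rule. For Parp14, Rtp4, Oasl2 and Xaf1 both p63 readings then equal 5.87, so the lines no longer have opposite signs and these genes do not meet it. Ptgs2, Vcam1, Parp14, Dhx58 and Ifi35 are named here after their values were seen.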

How the results depend on the processing

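No paired analysis was possible because each group has 1 array, and for the same reason no array could be left out within a group. Each difference of a member was recomputed under 7 alternatives, which gave 290 values, and a value counted as moved where it shifted by more than 0.321 (0.454 for the difference of etoposide differences), sizes taken from the SD over genes of that difference. Of the 290 values, 185 are identical to the main value, since filters and thresholds leave a difference as it is, most members have 1 probe set and Zbp1 alone has dim readings. A reversal was defined only for the 1 called difference, that of Mlkl after etoposide in p63 cells, which stayed above 0. For the other differences a change of sign smaller than the sizes above did not count as moved. Of the 105 that an alternative changed at all, 2 moved. Zbp1, p63 minus GFP under mock treatment, was -0.28 with dim readings set to the filter, against -0.66, and Cflar in the same comparison was -0.10 as the median of its probe sets, against -0.60. With arrays centred 0 members were called after etoposide in p63 cells, where Mlkl stood at 0.90. At a 1.5-fold threshold the count was 3 after etoposide in p63 cells, 1 in GFP cells, 3 for p63 in mock-treated cells and 1, Cflar, for the difference of etoposide differences. A filter at the 75th percentile left 4 members and a median of 0.47 after etoposide in GFP cells. Of 36 member differences, 5 changed sign under centring or cyclic loess, and 31 did not. Centring left 5 of 9 members above 0 after etoposide in p63 cells, against 7 as deposited, and 6 of 9 above 0 for p63 in mock-treated cells, against 3.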
